A study of Mus musculus with 3 samples.

Results

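The genes described here are 10 components of the mouse inflammasome and of pyroptosis, chosen by their GENCODE M21 names from the 55536 annotated genes of the deposited tables, of which 22028 are protein coding. They are the sensors Nlrp3, Nlrp1b, Naip2, Naip5 and Nlrc4, the adaptor Pycard, the caspases Casp1, Casp4 and Casp8, and the pore-forming executioner Gsdmd. They were read in 3 libraries of ribosome-depleted total RNA made from the chromatin fraction of C57BL/6J macrophages grown from bone marrow, which are primary cells. All 3 libraries belong to 1 condition: 100 ng/ml Lipid A (the membrane anchor of bacterial lipopolysaccharide and the ligand of the receptor TLR4) over 12 h, 12 h of washout, and a second exposure to 100 ng/ml over 25 min. The labels give 1 donor identifier for all 3 and do not state separate animals, sex or age, so every spread below is between these libraries and may be technical. RNA input was 1 µg, 250 ng and 500 ng in replicates 1, 2 and 3. No unstimulated or once-stimulated macrophages were analysed here, so the values are levels and not responses to Lipid A.

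Inflammasomes are cytosolic complexes that turn the recognition of microbes or damage into proteolysis. A sensor of the NLR family oligomerises, in most cases through the adaptor ASC (encoded by Pycard), and activates caspase-1, which matures interleukin-1β and interleukin-18 and cleaves gasdermin D. The freed amino-terminal part of gasdermin D forms pores in the plasma membrane, and the lytic death that follows is called pyroptosis. In mouse macrophages a parallel route uses caspase-11, the product of Casp4, which binds cytosolic lipopolysaccharide through its lipid A part and cleaves gasdermin D directly. RNA of the chromatin fraction is rich in transcripts still attached to, or just released from, the template, so levels in it are not those of cytoplasmic messenger RNA.

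The gene tables hold 13502401, 17848798 and 17824176 expected counts in annotated genes in replicates 1, 2 and 3, and the 10 genes together take 0.154%, 0.115% and 0.128% of them. An annotated ribosomal RNA locus on chromosome 17 takes 11.1%, 31.8% and 24.8% of the counts. All 10 of the macrophage markers listed (among them Adgre1, Csf1r and Lyz2) had at least 1 TPM (abundance per transcript length, with libraries brought to a common sum, so that genes can be compared) in every library, with a summed level of 1388 to 1452 TPM. None of the 32 markers of neutrophils, dendritic cells, T cells, B cells, fibroblasts or epithelium did, and the largest summed level of any of these lists was 2.55 TPM, for dendritic cells. S100a8, Ly6g, Elane, Cd3e, Epcam, Krt8 and Krt18 were listed at 0 in all 3 libraries. Those counts are from the gene table. Of the 32, 6 reached 1 TPM in every library of the second transcript table (Mpo, Zbtb46, Siglech, Cd3d, Cd8a and Col1a1), with Cd3d the highest at 12.1 ± 4.41 TPM beside 0.0300 TPM in the gene table. The part of this difference between tables in the levels below was not tested.

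Transcripts of all 10 genes were present in every library. Their TPM was at least 1 in all 3 libraries for 10 of 10, where 44.0% of annotated protein-coding genes pass the same threshold. At a threshold of 10 TPM, 8 of the 10 passed, all but Pycard and Nlrc4, where 20.9% of protein-coding genes do. The median of the 10 mean levels was 47.0 TPM, beside 11.0 TPM over the 9689 detected protein-coding genes. The genes were listed by name, so these shares are a description.

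**Figure D1:**
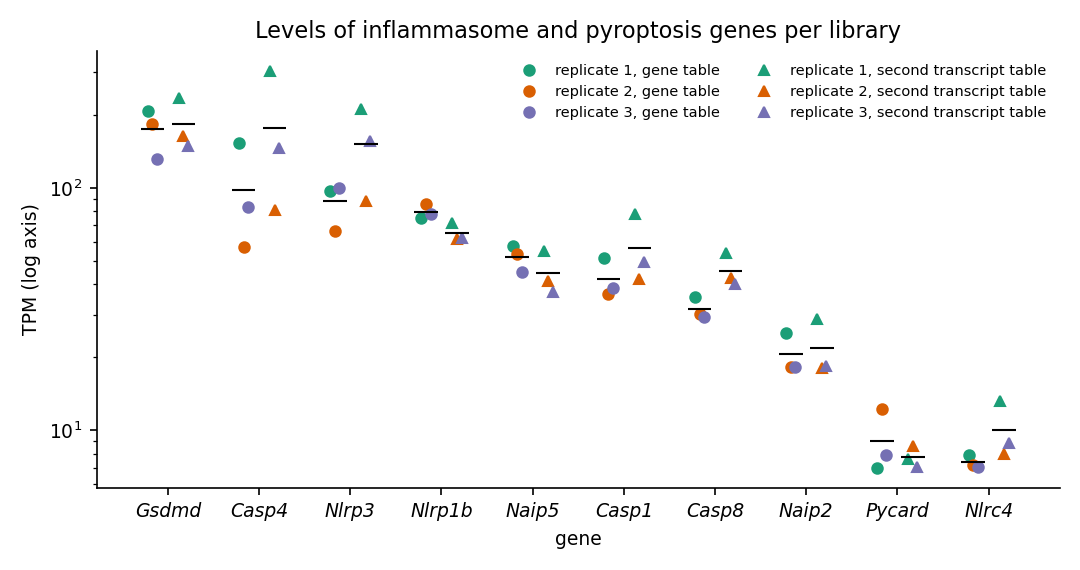
Level of each gene in TPM on a log axis, for each library (colour) in the gene table (circles) and as the sum of transcripts in the second transcript table (triangles), with black bars at the means of 3 libraries. Genes run from Gsdmd with a mean of 174 TPM on the left to Nlrc4 with 7.39 TPM on the right, and the circles of Casp4 are spread from 57.0 to 153 TPM.

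Among the sensors named at the start, Nlrp3 and Nlrp1b had the highest whole-gene levels and Nlrc4 the lowest. Nlrp3 (ENSMUSG00000032691.14, chr11:59541568-59566956, GRCm38, plus strand), which responds to potassium efflux and many other disturbances, had 97.2, 66.2 and 100.1 TPM in replicates 1, 2 and 3 (87.8 ± 18.8, SD, n = 3), from 4884, 3979 and 6436 expected counts. Replicate 2 was the low library and the other two lay close together. Nlrp1b (ENSMUSG00000070390.12, chr11:71153102-71230733, minus strand), a sensor that is activated when pathogen proteases cleave it, had 75.2, 85.4 and 77.8 TPM (79.5 ± 5.30), with replicate 2 the highest. The 2 genes lie on the same chromosome and their ranges overlap.

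The NAIP proteins bind bacterial ligands and then recruit NLRC4, which carries the signal on. Naip5 (ENSMUSG00000071203.6, chr13:100211739-100246323, minus strand), the flagellin receptor, had 57.4, 53.3 and 44.9 TPM (51.9 ± 6.37). Naip2 (ENSMUSG00000078945.10, chr13:100144063-100202092, minus strand), which recognises the inner rod of type III secretion systems, had 25.2, 18.3 and 18.2 TPM (20.6 ± 4.0). Every library had more Naip5 than Naip2, and the ranges do not overlap. Nlrc4 (ENSMUSG00000039193.9, chr17:74425438-74459142, minus strand), the partner of both, had 7.92, 7.19 and 7.06 TPM (7.39 ± 0.464) from 420, 434 and 454 counts. In the gene table the 3 libraries of Nlrc4 lay within a factor of 1.12. In the second transcript table they lay further apart, at 13.2, 7.99 and 8.86 TPM. All of these values were under the lowest value of either receptor in the same table.

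Naip2 and Naip5 are neighbours in a cluster of near-identical genes, so reads can be split between copies. Of the distinct 31-base words in Naip5 transcripts, 53.1% also occur in transcripts of other genes, 36.7% in Naip6 alone. Of those in Naip2, 32.8% are shared, 21.1% with Naip1 and 17.2% with Naip5. For Nlrp3, Casp1 and Gsdmd no 31-base word is shared with another gene. Naip6, another gene of the cluster and also a flagellin receptor, had 67.5, 59.9 and 49.6 TPM, close to Naip5 in each library, while Naip1 had 0.330, 0.380 and 0.190 TPM. The levels of single NAIP genes therefore depend on how the quantifier divides shared reads, and are uncertain to that extent.

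The 250 bases before the RefSeq starts of Naip2 and Naip5 are shown because the copies also resemble each other there. Both lie on the minus strand of chromosome 13 in GRCm38.p6, at chr13:100202123-100202372 and chr13:100247337-100247586, and are written 5′ to 3′ with the start just after the last base. Capitals mark the stretches of at least 12 bases that the 2 windows have in common, which cover 57 of 250 bases in 2 blocks, the longer of 34 bases.
Naip2: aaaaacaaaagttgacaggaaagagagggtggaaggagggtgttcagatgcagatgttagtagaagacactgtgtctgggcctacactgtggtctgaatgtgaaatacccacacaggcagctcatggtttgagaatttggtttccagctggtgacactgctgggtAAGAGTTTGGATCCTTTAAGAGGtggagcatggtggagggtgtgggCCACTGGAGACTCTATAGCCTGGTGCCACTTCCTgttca
Naip5: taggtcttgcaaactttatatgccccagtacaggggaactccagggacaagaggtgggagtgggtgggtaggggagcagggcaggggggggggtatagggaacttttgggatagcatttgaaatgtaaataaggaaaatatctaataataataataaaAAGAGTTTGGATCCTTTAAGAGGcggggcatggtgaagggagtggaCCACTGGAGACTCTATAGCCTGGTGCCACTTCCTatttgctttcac
The shared blocks sit near the start in both windows.

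The adaptor was among the genes with the lowest levels. Pycard (ENSMUSG00000030793.4, chr7:127989708-127993867, minus strand) had 7.0, 12.2 and 7.92 TPM (9.02 ± 2.75), from 335, 554 and 486 counts, with replicate 2 the highest. Its range overlaps that of Nlrc4, and the order of the pair held in 2 of 3 libraries. In the first transcript table, Pycard-201 held 100.0%, 78.2% and 100.0% of the level in replicates 1, 2 and 3. It is annotated at 3800 bases, of which the last exon makes up 3258. The rest in replicate 2 was Pycard-202, of 493 bases, with 2.65 TPM from 10 counts. In the second transcript table Pycard had 7.62, 8.64 and 7.08 TPM. An antisense gene, Gm45205, overlaps Pycard over 599 bases and shares 12.0% of its 31-base words, with 13, 29 and 36 counts assigned to it. The strand setting of the counting is not given in the sources used here, so reads of the pair may not be told apart.

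The caspases differed in level and in how far the libraries agreed. Casp1 (ENSMUSG00000025888.5, chr9:5298517-5307265, plus strand), the caspase that all canonical inflammasomes activate, had 51.2, 36.5 and 38.5 TPM (42.1 ± 7.98). Casp4 (ENSMUSG00000033538.13, chr9:5308828-5336783, plus strand), the next gene on the same strand, had 153, 57.0 and 83.3 TPM (97.9 ± 49.8) from 1808, 758 and 1202 counts. Replicate 1 was the highest for both, and the highest Casp4 value was 2.69 times the lowest. Casp8 (ENSMUSG00000026029.14, chr1:58795374-58847503, plus strand), the initiator of death-receptor apoptosis that can also cleave gasdermin D, had 35.3, 30.2 and 29.3 TPM (31.6 ± 3.21). Its range lies under that of Casp1. A further annotated gene, Gm37760, lies on the same strand within Casp8 over 3841 bases and was assigned 942, 1067 and 852 counts, about as many as the 882, 912 and 966 counts of Casp8 itself.

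The executioner had the highest mean level of the 10. Gsdmd (ENSMUSG00000022575.5, chr15:75862327-75867408, plus strand) had 208, 184 and 131 TPM (174 ± 39.2), from 2210, 2367 and 2084 counts. Among the detected protein-coding genes of each library it stood at percentile 98.0, 98.1 and 97.0. It was above Casp4 in all 3 libraries, although the ranges of the pair overlap.

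Ordered by mean TPM the genes run Gsdmd, Casp4, Nlrp3, Nlrp1b, Naip5, Casp1, Casp8, Naip2, Pycard and Nlrc4. Of the 9 pairs of neighbours in that order, 4 have ranges that do not overlap: Nlrp1b above Naip5, Casp1 above Casp8, Casp8 above Naip2, and Naip2 above Pycard. The ranges of the other 5 overlap, though within libraries Gsdmd exceeded Casp4, and Naip5 exceeded Casp1, in 3 of 3. Casp4 exceeded Nlrp3 in 1 of 3 libraries, and Nlrp3 exceeded Nlrp1b in 2 of 3.

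Differences within a library were then taken between 8 pairs of genes with related roles, as log2(TPM + 1) of the one less that of the other. With 3 libraries the design cannot give an exact two-sided sign-flip p below 0.25, and 7 of the 8 pairs reached that value (0.286 after Benjamini-Hochberg adjustment over the 8), so none passed a threshold of 0.05. The size and the sign per library are therefore what the data give. Nlrp3 exceeded Nlrc4 by 3.46, 3.04 and 3.65 (3.38 ± 0.31, a 10.4-fold difference on the scale of TPM + 1). Naip5 exceeded Nlrc4 by 2.71, 2.73 and 2.51 (2.65 ± 0.12), the pair with the smallest spread of the 8. NLRC4, which the ligand-bound NAIP proteins recruit, was thus encoded by RNA of a lower level than that of its receptor Naip5 in 3 of 3 libraries.

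Naip5 exceeded Naip2 by 1.16, 1.49 and 1.26 (1.30 ± 0.17), within the limit set by shared sequence above. Between Nlrp3 and Nlrp1b the differences were 0.37, -0.36 and 0.36 (0.12 ± 0.42; exact sign-flip p = 0.750), smaller than their spread and without a common sign. Pycard was below Casp1 in every library, by -2.71, -1.51 and -2.15 (-2.12 ± 0.60). Casp8 was also below Casp1 in every library, with differences of -0.53, -0.26 and -0.38 (-0.39 ± 0.13). In the second transcript table that difference was -0.27 ± 0.27, and in replicate 2 Casp8 was the higher (42.6 beside 42.1 TPM).

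Gsdmd exceeded Casp1, one of the proteases that cleave its product, by 2.00, 2.30 and 1.74 (2.01 ± 0.28). Casp4 exceeded Casp1 by 1.56, 0.63 and 1.09 (1.10 ± 0.47). Only transcripts annotated as protein coding in the first transcript table were then counted. The difference for Gsdmd became 0.49 and that for Casp4 reversed to -1.70. Nlrp3 minus Nlrp1b became 0.95 ± 0.40, with Nlrp3 higher in 3 of 3 libraries. Nlrp1b, above Naip5 in every library by whole-gene level, was below it in every library by coding transcripts (42.7, 46.9 and 42.9 TPM beside 57.4, 53.3 and 44.9). In the second table, coding Casp4 was above Casp1 in replicate 1 (102 beside 77.6 TPM). It was below Casp1 in replicates 2 and 3 (15.5 and 35.8 beside 42.1 and 49.5 TPM). These results thus rest on which transcripts are summed, and that for Casp4 also on the quantification.

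**Figure D2:**
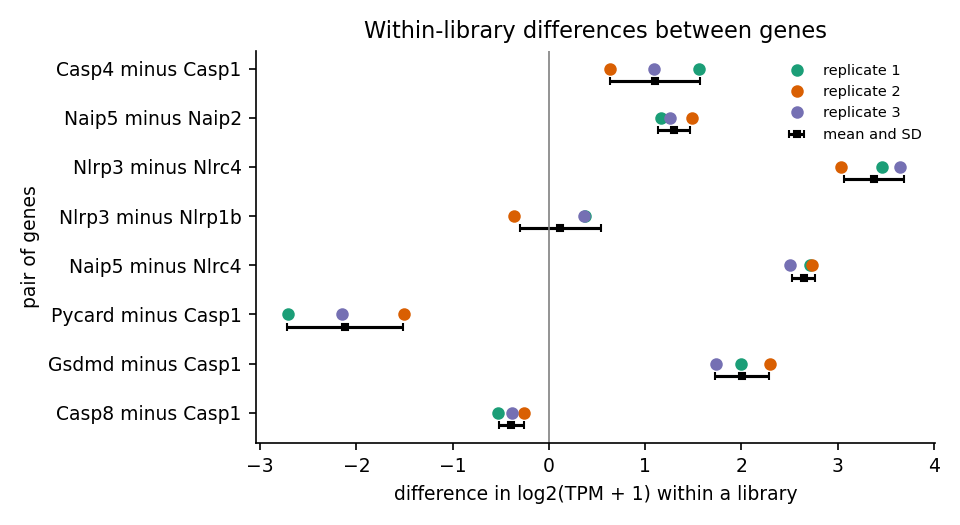
Difference in log2(TPM + 1) between 2 genes of the same library for 8 pairs, with 1 point for each library and, just under the points, the mean and SD of 3 libraries. The points of 7 pairs lie on 1 side of 0, and those of Nlrp3 minus Nlrp1b lie on both.

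By TPM, transcripts annotated as retained introns carried most of the level of Gsdmd and of Casp4. In the first transcript table they held 73.3%, 65.8% and 55.4% of the TPM of Gsdmd (64.8% ± 8.95) and 69.8%, 72.3% and 70.9% of that of Casp4 (71.0% ± 1.23). In that table Gsdmd had its highest share in replicate 1 and its lowest in replicate 3, whereas the 3 libraries of Casp4 agreed closely. In the second table Casp4 had the wider spread, with 58.3%, 73.2% and 69.6% beside 64.8%, 61.3% and 56.8% for Gsdmd. Gsdmd and Casp4 are the only 2 of the 10 genes that have such transcripts in the annotation and could be counted. The comparison set was the genes that have them and reach 5 TPM in the first table. Of these, 33.4% hold at least 50% of their TPM in them in every library, and the median share is 46.0%. The share stood at percentile 80.5 among those genes for Gsdmd and 88.0 for Casp4. TPM weighs a short transcript more than a long one for the same reads, and of the retained-intron transcripts of the 2 genes all but Casp4-202 (1614 bases) are shorter than the main coding transcript of the gene, Gsdmd-201 (1792) or Casp4-201 (1435). By expected count the shares in the first table were 50.3%, 39.6% and 33.0% for Gsdmd and 49.0%, 51.2% and 51.3% for Casp4. Whether these reads came from RNA not yet spliced or from transcripts that keep an intron was not tested.

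The largest single transcript of Gsdmd by mean TPM in the first table was Gsdmd-204, a retained-intron transcript of 915 bases with 34.7% ± 3.13, followed by the full coding transcript Gsdmd-201 with 31.6% ± 7.31, then Gsdmd-206 with 19.2% ± 3.11. Gsdmd-201 led in replicate 3 (39.2% beside 32.0%) and in the mean of the second table (34.2% beside 32.7%), so the data do not settle which of the pair is the larger. For Casp4 in the first table it was Casp4-207, of 752 bases, with 32.5% ± 3.96, then Casp4-205 with 21.8% ± 3.29 and Casp4-202 with 16.7% ± 1.98. In the second table Casp4-205 led with 29.4% ± 5.49 and Casp4-207 held 23.4% ± 0.589. The coding transcript Casp4-201 held 13.5% ± 2.36. Casp4-205 is only 365 bases long and its share rests on 62, 28 and 40 counts. Casp4-204, annotated as a target of nonsense-mediated decay (the removal of messages with an early stop codon), held 15.5% ± 2.24, and it too contains 1038 bases that are intron in Casp4-201.

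**Figure D3:**
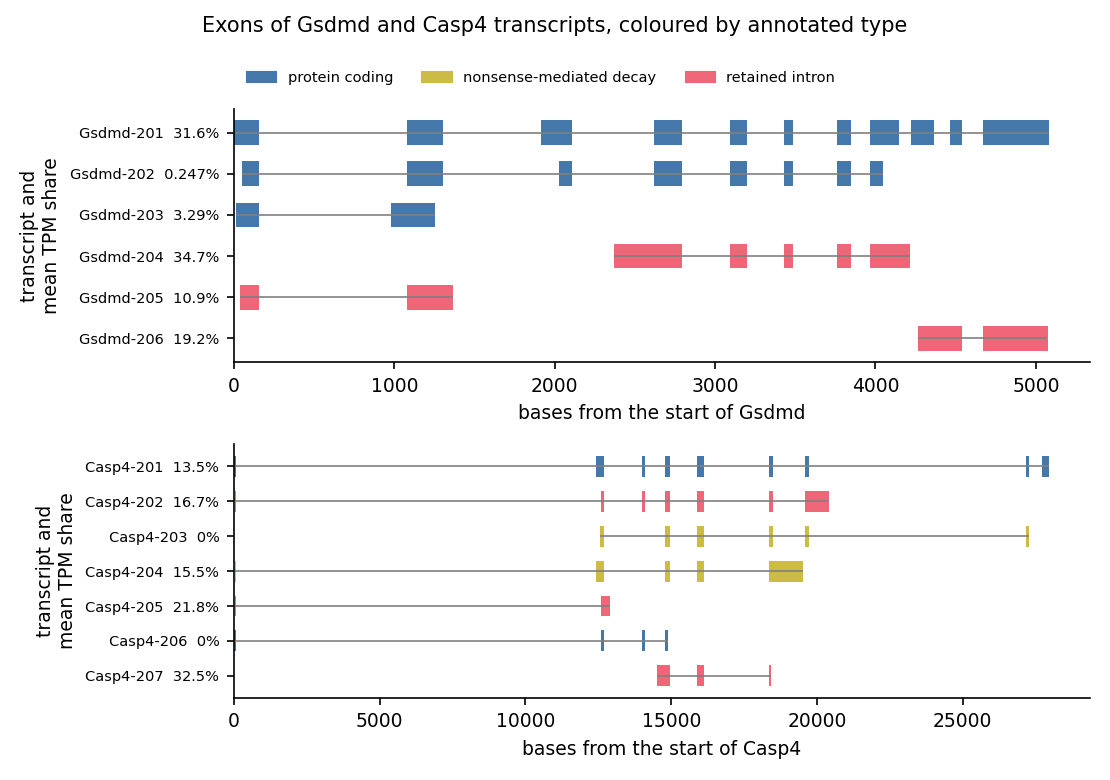
Exons (boxes) of the annotated transcripts of Gsdmd (top) and Casp4 (bottom) against the distance in bases from the start of the gene, coloured by annotated type, with the mean share of the gene's TPM in the first transcript table beside each name. Boxes of the retained-intron transcripts run on where Gsdmd-201 and Casp4-201 have a gap, as at the second-to-last gap of Gsdmd in Gsdmd-206.

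A read from an intron can be assigned to a member only through an annotated transcript that covers that stretch. The stretches that set these transcripts apart from the coding ones are therefore printed at 3 junctions, 5′ to 3′ on the plus strand in GRCm38, from the GENCODE M21 transcripts. Lower case marks exon and capitals mark what is intron in Gsdmd-201 or Casp4-201. Gsdmd-206 contains the whole of intron 9 (99 bases, chr15:75866691-75866789). Casp4-207 begins within intron 3 (chr9:5322918-5323624, 707 bases), whose last 60 bases are shown. Casp4-202 runs on into intron 7 (chr9:5328543-5335995, 7453 bases), whose first 60 bases are shown.
Gsdmd intron 9: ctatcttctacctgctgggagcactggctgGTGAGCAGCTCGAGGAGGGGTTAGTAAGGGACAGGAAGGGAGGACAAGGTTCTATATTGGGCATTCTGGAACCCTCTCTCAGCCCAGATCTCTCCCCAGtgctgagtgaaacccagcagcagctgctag
Casp4 intron 3 end: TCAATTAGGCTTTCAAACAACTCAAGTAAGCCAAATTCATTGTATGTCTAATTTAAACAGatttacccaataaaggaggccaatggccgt
Casp4 intron 7 start: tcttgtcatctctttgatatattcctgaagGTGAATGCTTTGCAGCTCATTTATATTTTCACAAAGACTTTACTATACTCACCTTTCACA
Each intron keeps the GT at its start or the AG at its end that is printed here.

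With protein-coding transcripts alone, Nlrp3 led with 87.8 ± 18.8 TPM and Gsdmd followed with 55.6, 62.7 and 58.4 TPM (58.9 ± 3.60), a narrower spread than for the whole gene. Casp4 had 19.7, 6.54 and 13.4 TPM (13.2 ± 6.57) and stood at place 8 of the 10. In the second transcript table, Casp4 kept a higher coding level of 102, 15.5 and 35.8 TPM (51.1 ± 45.2), much of it from Casp4-206, a coding transcript of 361 bases that the first table lists at 0. Retained-intron transcripts held 67.0% ± 7.74 of Casp4 and 61.0% ± 4.04 of Gsdmd in that table. Among the genes with such transcripts and at least 5 TPM there, these shares stood at percentile 82.2 and 74.8, beside a median of 44.6%. Mean shares over 50% were thus present in both quantifications, while the level of the Casp4 coding transcripts differed between them.

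The sensors had other divisions. Nlrp1b-205, annotated as a target of nonsense-mediated decay, held 43.2%, 45.1% and 44.8% of Nlrp1b (44.4% ± 1.01) in the first table and 58.0% ± 2.12 in the second. The 3 Nlrp1b transcripts that begin at the upstream start of the gene together held 64.4% ± 0.584 in the first table and 63.4% ± 0.879 in the second; the tables were closer on the start used than on the share of Nlrp1b-205. Nlrc4-202, of the same decay type, held 42.1% ± 7.22 of Nlrc4 in the first table and 6.12% ± 1.04 in the second.

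For the sensors Nlrp3 and Naip2 the tables also named different leading transcripts. Nlrp3-201 held 55.2% ± 3.52 of Nlrp3 in the first table and 14.0% ± 2.33 in the second, where Nlrp3-203, a transcript of 676 bases listed at 0 in the first, held 45.3% ± 8.59. Only 35 of the 31-base words of Nlrp3-201 and 0 of those of Nlrp3-203 are absent from the other transcripts of the gene. Naip2-201 held 78.8% ± 4.56 in the first table and Naip2-202 held 68.3% ± 3.92 in the second. Summed over transcripts, Naip2 had a mean of 21.8 TPM in the second table beside 20.6 in the first, while Nlrp3 had 152 beside 87.8.

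Casp8-202 was the leading transcript of Casp8 in both tables, with 56.5% ± 7.90 and 43.9% ± 1.33. Pycard-201 held 92.7% ± 12.6 and 95.2% ± 8.33 of Pycard. Casp1 and Naip5 have 1 annotated transcript each.

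**Figure D4:**
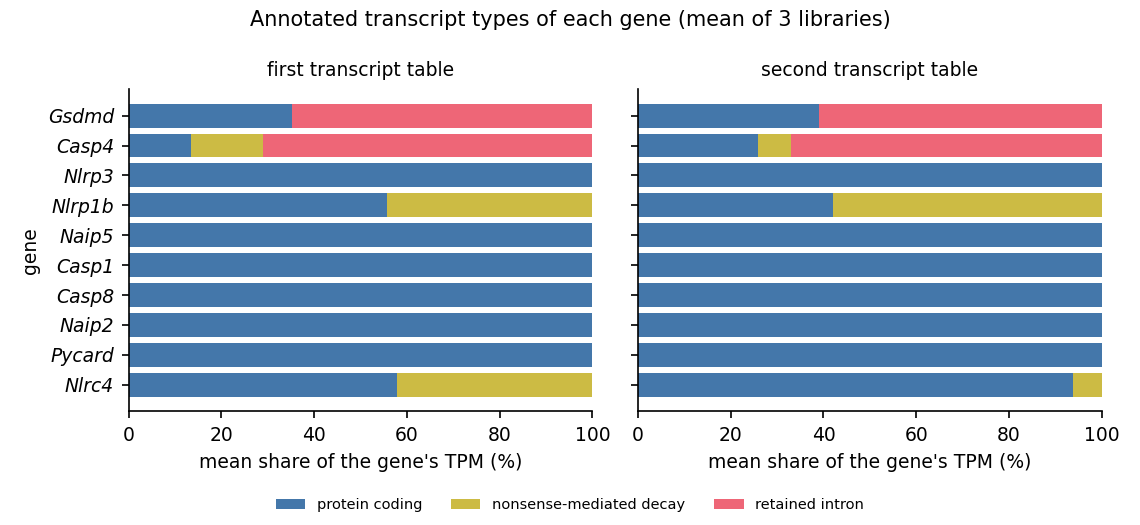
Mean share of each gene's TPM, in percent over 3 libraries, held by transcripts annotated as protein coding, as targets of nonsense-mediated decay or as retained introns, in the first (left) and second (right) transcript table. Retained introns hold over 50% of Gsdmd and Casp4 on both sides, and the decay type holds 42.1% of Nlrc4 on the left and 6.12% on the right.

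The second table gave higher whole-gene means for Nlrp3 (152 ± 61.7 TPM), Casp4 (177 ± 114), Casp1 (56.4 ± 18.7) and Casp8 (45.5 ± 7.23), and lower ones for Nlrp1b (64.9 ± 5.74) and Naip5 (44.5 ± 9.29). In it Nlrp3 exceeded Nlrp1b in 3 of 3 libraries, by 1.13 on the log2 scale, and Casp1 exceeded Naip5 in 3 of 3. Gsdmd exceeded Casp4 in 2 of 3 libraries of the second table, with Casp4 the higher in replicate 1 (304 beside 235 TPM), and Casp1 exceeded Casp8 in 2 of 3. Pycard exceeded Nlrc4 in 1 of 3 and had the lower mean, 7.78 TPM. The order of these 5 pairs thus differed between the quantifications. Estimated counts in the second table were higher for all 10 genes, with a median ratio of 1.65 to the first table, beside 1.63 over detected protein-coding genes. Nlrc4 had the largest ratio, at 2.31, followed by Casp8 at 2.06 and Casp1 at 2.01.

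Casp4 had the widest spread of the 10 genes over the 3 libraries. The biological coefficient of variation (BCV), the spread of a gene's counts beyond counting error, was 0.489 for Casp4, at percentile 96.9 of the 14193 genes fitted. Nlrp3 followed with 0.221 (percentile 72.6). The lowest were Nlrc4 with 0.0267, Casp8 with 0.04 and Nlrp1b with 0.0623, and the median of the 10 genes, 0.135, lay beside a median of 0.136 over all genes. An estimate from 3 libraries is imprecise: leaving out 1 library moved it by over 1.5 times for 10 of the 10. The same share over all genes was not counted, but their median fell from 0.136 to 0.0699 without replicate 1. Without replicate 1 the Casp4 value was 0.287, at percentile 89.2, under the 0.301 of Nlrp3, at percentile 90.3, so the rank of Casp4 rests on that library. Without replicate 2 the Nlrp3 value was 0.0683.

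**Figure D5:**
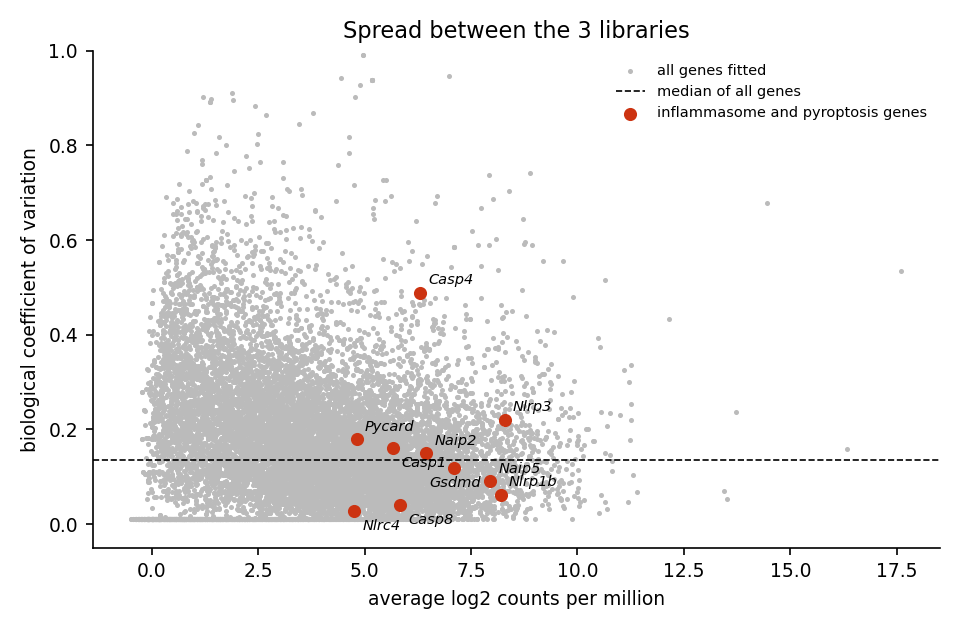
Biological coefficient of variation between the 3 libraries (vertical) against the average log2 CPM, counts scaled to library size (horizontal) for 14193 genes (grey) and the 10 genes described here (red), with the median of all genes as a dashed line and 17 genes above the axis limit. Casp4 lies at 0.489, above the other 9, and Nlrc4 and Casp8 lie near the bottom.

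Other genes of the pathway were taken from a list by role, of which 44 could be matched by name and 33 had at least 1 TPM in every library (37 in the second transcript table), beside the 44.0% of protein-coding genes given above. Of the other sensors 7 of 11 were detected, of the NLRP3 cofactors and channels 7 of 8, of the caspases and the death complex 8 of 10, and of gasdermins and membrane rupture 3 of 5. All 3 cytokine substrates and all 3 guanylate-binding proteins (Gbp2, Gbp3 and Gbp5, which open bacterial membranes to caspase-11) were detected, as were 2 of 4 restraining factors. The highest levels were those of Nlrc5, a regulator of MHC class I genes, with 415, 372 and 265 TPM, of Cflar, the catalytically inactive relative of caspase-8 that restrains it, with 369, 183 and 208 TPM, and of Gbp5 with 261, 68.3 and 94.1 TPM. Each of the 3 was highest in replicate 1, the library with the most RNA input. So were Naip2, Naip5, Nlrc4, Casp1, Casp4, Casp8 and Gsdmd, 7 of the 10 genes. How many of all genes were highest in replicate 1 was not counted. Protein-coding genes together also held more of the TPM in that library (29.8%, beside 26.4% and 25.4% in replicates 2 and 3). Replicate 1 also had the smallest share of counts in the ribosomal RNA locus (11.1%, beside 31.8% and 24.8%). The part of RNA input and of that share in these levels was not tested.

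Not detected by that rule were Nlrp6, Nlrp10, Nlrp12, Naip1, Panx1, Casp12, Fadd, Gsdma, Gsdmc, Serpinb1a and Card6. Casp12, a neighbour of Casp4 in the same gene cluster, had 1.27, 1.52 and 0.550 TPM, so 2 of its 3 libraries did reach 1 TPM. Fadd, the adaptor of caspase-8, had 0.700, 1.13 and 0.780 TPM from 35, 67 and 50 counts. Gsdma and Gsdmc, gasdermins known from epithelia, were listed at 0 in all 3 libraries of the gene table, where a count of 0 allows up to 3 counts, yet the second table gives Gsdma 2.27 ± 0.468 TPM. Among the cytokine substrates, Il1b had 114, 65.1 and 139 TPM, with replicate 2 the lowest, as it also was for Il1a and Il18.

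Promoter sequence was examined for 2 motifs of factors that act downstream of TLR4, both chosen after the sequences had been seen. The set of RefSeq (GRCm38.p6) starts used here covers 9 of the 10 genes, with 12 entries in all. It holds none for Gsdmd, which was not searched. In the 250 bases before these starts, on either strand, the NF-κB consensus matched in a window of 3 of the 9 genes (Casp4, Naip5 and the upstream start of Nlrp3), where 3.90% of 32851 single windows of the same length hold a match. The interferon-stimulated response element, searched as GAAANNGAAA, matched for 0 of the 9, where 2.98% of windows hold it. The windows of Casp4 (chr9:5308599-5308848, plus strand) and Nlrp3 (chr11:59541319-59541568, plus strand) are shown with the matching bases in capitals.
Casp4: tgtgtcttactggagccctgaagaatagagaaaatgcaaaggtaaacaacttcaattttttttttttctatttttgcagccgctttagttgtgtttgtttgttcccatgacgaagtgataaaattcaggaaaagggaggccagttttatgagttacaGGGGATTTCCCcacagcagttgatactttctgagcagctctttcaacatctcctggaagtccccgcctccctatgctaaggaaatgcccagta
Nlrp3: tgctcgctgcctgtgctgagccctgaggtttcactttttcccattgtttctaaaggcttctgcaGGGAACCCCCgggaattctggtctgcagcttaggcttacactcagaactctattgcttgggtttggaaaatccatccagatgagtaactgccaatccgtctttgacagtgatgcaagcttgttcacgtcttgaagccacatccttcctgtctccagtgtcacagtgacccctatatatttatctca
The first matching base lies 93 bases before the start in Casp4 and 186 bases in Nlrp3. A match is a run of letters and not a measured binding site, and 1 condition gives no response to set beside it.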

How the data were processed

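Chromatin-fraction RNA of 3 libraries was analysed from 1 gene table and 2 transcript tables each. Expected counts fill the gene tables and first transcript tables per the file headers, with TPM beside them, in columns that carry RSEM's names. The second transcript table holds estimated counts and TPM, deposited under kallisto's column names. The deposited notes give mm10 and GENCODE M21. Which aligner, versions and strand setting were used is not given in the sources used here. Other deposited columns used were effective lengths in bases.

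TPM was used as deposited. Differences between genes used a pseudocount of 1 and a two-sided exact sign-flip test with the 3 libraries as units. For edgeR 4.0.16 the expected counts were made whole by rounding (filterByExpr, TMM, intercept-only dispersion, DESeq2 1.42.0 size factors as an alternative). Rows outside annotated genes (spike-in sequences and numbered entries) held 1.75%, 0.396% and 0.239% of counts and were left out. On simulated data for this fit, genes made with a BCV of 0.6 came back with a median of 0.247 under edgeR's default shrunken estimate. An unshrunk estimate was then chosen. It returned medians of 0.157 for 13732 genes made with 0.2 and 0.448 for 200 genes made with 0.6, with root mean squares of 0.2 and 0.546. Medians therefore run low. The criterion for this check was changed from the median to the root mean square after the median had missed it.

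Retained-intron shares used genes of at least 5 TPM. Sequence words of 31 bases were counted in GENCODE M21 transcripts. Genes, lists and tests were chosen with earlier results of these data known. The 10 TPM threshold, the retained-intron count, the shared words and the promoter search were added after the values had been seen. Named were all 10 genes, the 3 highest and the undetected genes of the pathway list, Naip1, Naip6, Casp12, and transcripts that lead a table or hold at least 10% of a gene. Il1a, Il1b and Il18 were named after their values were seen.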

Additional observations from a re-analysis of the deposited data

How the results depend on the processing

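Of 72 values of the 8 differences under other settings, 70 kept their direction. For a pair with 1 sign in every library, a smaller pseudocount, a rescaling of the library or leaving out a library could not reverse it. For such pairs only the second transcript table, posterior mean TPM and protein-coding transcripts alone could do so. Casp4 minus Casp1 turned to -1.70 with protein-coding transcripts only, in the first transcript table. The retained-intron and decay transcripts that hold most of Casp4 are then left out. Nlrp3 minus Nlrp1b was -0.00086 without replicate 1 and 0.36 without replicate 2, so that its sign rests on single libraries. All 10 genes stayed detected under each of the 8 alternatives run. A cut of 0.5 TPM, leaving out a library and rescaling over protein-coding genes could not lower that number. The second transcript table, posterior mean TPM and a cut of 5 TPM could have. The Casp4 retained-intron share was 67.0% in the second transcript table; without 1 library it ranged from 70.3% to 71.6%, and that of Gsdmd from 60.6% to 69.5%. Mean TPM moved by more than 1 SD for 7 of 10 genes in the second table, for 2 of 10 with posterior mean TPM, and for 10 of 10 when TPM was rescaled over protein-coding genes. That rescaling raises every value of a library by the same factor, so the last count was fixed in advance. The default shrunken BCV, an alternative added after seeing the data, was 0.289 for Casp4 (percentile 94.8) beside a median of 0.203, and without the low-count filter the median was 0.203 as well. The 8 differences were paired within libraries, and no comparison between conditions was possible because the series has 1 group. With 3 libraries of 1 condition, no response to Lipid A can be computed and no p can fall below 0.25. Shares within Nlrp3, Nlrp1b and Naip2 rest on few transcript-specific bases.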
